A study of Rattus norvegicus with 115 samples.

Results

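Microbeam-irradiated rat brain tumours were compared between 8 days and 48 h after a single irradiation. The comparison took the 7 arrays titled as MRT-treated tumours at 8 days (rats 32 to 38) and the 8 titled so at 48 h (rats 19 to 26), 15 of the 115 arrays of the study, and used all probe sets. Microbeam radiation therapy (MRT) delivers synchrotron X-rays as an array of very narrow parallel beams, so that slices of tissue at a high peak dose alternate with valleys at a low dose. The study set MRT beside a broad beam (BB), which irradiates the field evenly, and beside no treatment, in the tumour and in the opposite (contralateral) hemisphere. Each rat gave its tissue at 1 time only, so the comparison is between different animals.

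All rats were of the Fisher strain and carried tumours grown from 100000 9L cells injected into the right caudate nucleus, and irradiation followed 10 days after implantation. 9L is an established rat gliosarcoma-type line, called glioblastoma in the labels, so every tumour comes from 1 cell line in animals with their own immune system. The MRT groups received a microbeam dose of 400 Gy with a valley dose of 18 Gy, and the BB groups received 1 even dose a little below that valley dose. Groups used beside the MRT tumours were untreated tumours (4 arrays at 48 h and 4 at 8 days), BB tumours (4 and 4) and contralateral brain of MRT rats (7 and 6). A resected tumour holds tumour cells, blood-derived and resident immune cells, vessels and bordering brain, and in such bulk samples a larger number of cells of a type and more RNA per cell cannot be told apart.

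As background, ionizing radiation stops dividing cells through DNA damage checkpoints, and dying cells release signals that recruit myeloid cells and then lymphocytes. Cytotoxic T and natural killer (NK) cells kill through perforin and granzymes and secrete interferon gamma, which induces the chemokines Cxcl9, Cxcl10 and Cxcl11 and the genes of antigen presentation. Antigen reaches T cells on major histocompatibility complex (MHC) molecules, class I on nearly all cells and class II on macrophages, dendritic cells and B cells. The rat MHC is called RT1.

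Values are log2 of the deposited intensity, differences are 8 days minus 48 h on the log2 scale, and a gene is called when its adjusted p is under 0.05 (limma, Benjamini-Hochberg adjustment over 31042 probe sets). Intensities of different probe sets were not set against each other. The array medians did not separate the groups, at 124 to 139 for 8 days and 128 to 144 for 48 h (exact permutation test, two-sided, p = 0.374). The 3' minus 5' difference of beta-actin, a sign of RNA integrity and labelling, was 1.50 ± 0.15 (SD, n = 7) at 8 days and 1.99 ± 0.74 (SD, n = 8) at 48 h (exact permutation test, two-sided, p = 0.148). At 48 h the arrays of rats 19, 20 and 21 stood apart in it, at 2.44, 3.18 and 2.91, where the other 12 arrays lay between 1.27 and 1.67. At 8 days the arrays of rats 37 and 38 stood apart in the mean over 39 mitosis genes, at 7.45 and 7.40 against 8.71 to 9.35 in the other 5, and had the highest neuron marker means of their group, 10.61 and 10.73. Counts below are therefore given also without these arrays where they move.

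The labelled tissue was checked by its markers. The neuron markers averaged 9.75 ± 0.91 (n = 8) at 48 h and 9.63 ± 0.76 (n = 7) at 8 days in the tumours, against 11.27 ± 0.13 and 11.22 ± 0.13 in contralateral brain of MRT rats, and the mitosis genes averaged 9.91 and 8.57 in the tumours against 6.33 and 6.26 in that brain. The mitosis mean was higher in the tumours than in that brain, and the neuron mean varied more from rat to rat in the tumours.

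Of 14217 genes, 4149 (29.2 percent) were called between 8 days and 48 h, 1682 higher and 2467 lower at 8 days. Of the 13637 genes in none of the lists described below, 10.8 percent were called higher and 17.1 percent lower, and counts of list members called are to be read against these shares. On the level of probe sets 7000 were called (22.6 percent), 2972 higher and 4028 lower. The split depended on the arrays of rats 19, 20 and 21. Without them 4804 probe sets were called, 2691 higher and 2113 lower, so that the share of higher calls moved from 42.5 to 56.0 percent. With the beta-actin 3' minus 5' difference as a covariate instead, 7005 probe sets were called, 43.5 percent of them higher. The large changes were mostly rises: 196 genes (1.38 percent) were called with a rise past 2 log2 and 75 (0.528 percent) with a fall past 2 log2. In 843 genes (5.93 percent) every 8-day array lay above every 48 h array, and in 535 (3.76 percent) every one lay below. Counts of list members without overlap are to be read against 5.93 and 3.76 percent.

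The largest non-overlapping rise was that of Ubd. Ubd, a ubiquitin-like protein induced by interferon gamma and tumour necrosis factor, lay at 6.27, 6.54 and 7.57 (lowest, median, highest) at 48 h and at 12.73, 13.24 and 13.66 at 8 days, a difference of 6.58 ± 0.62 (SE; adjusted p = 1.45e-11), or 95.7-fold. The chemokines Cxcl9 (5.44), Cxcl13 (5.36) and Cxcl11 (4.76), the receptor Tnfrsf14 (5.13), the macrophage scavenger receptor Cd163 (5.04), the NK receptor Klrd1 (4.72), the T cell receptor chain Cd3d (4.70), the actin-severing protein Scin (4.63), the pseudogene Apol3-ps1 (4.54), the protease granzyme B (Gzmb, 4.51) and the lymphocyte activation marker Cd69 (4.47) followed. The largest non-overlapping falls were Col18a1 (-3.59), Sfrp4 (-3.52), Prrx2 (-3.13), Col1a1 (-3.10), Col3a1 (-3.04), Col6a3 (-3.04), the serotonin transporter Slc6a4 (-2.98), Pimreg (-2.97), Col6a2 (-2.92), Glod5 (-2.90), Pdgfra (-2.86) and Osr2 (-2.85). Collagen chains made up 5 of these 12.

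**Figure D1:**
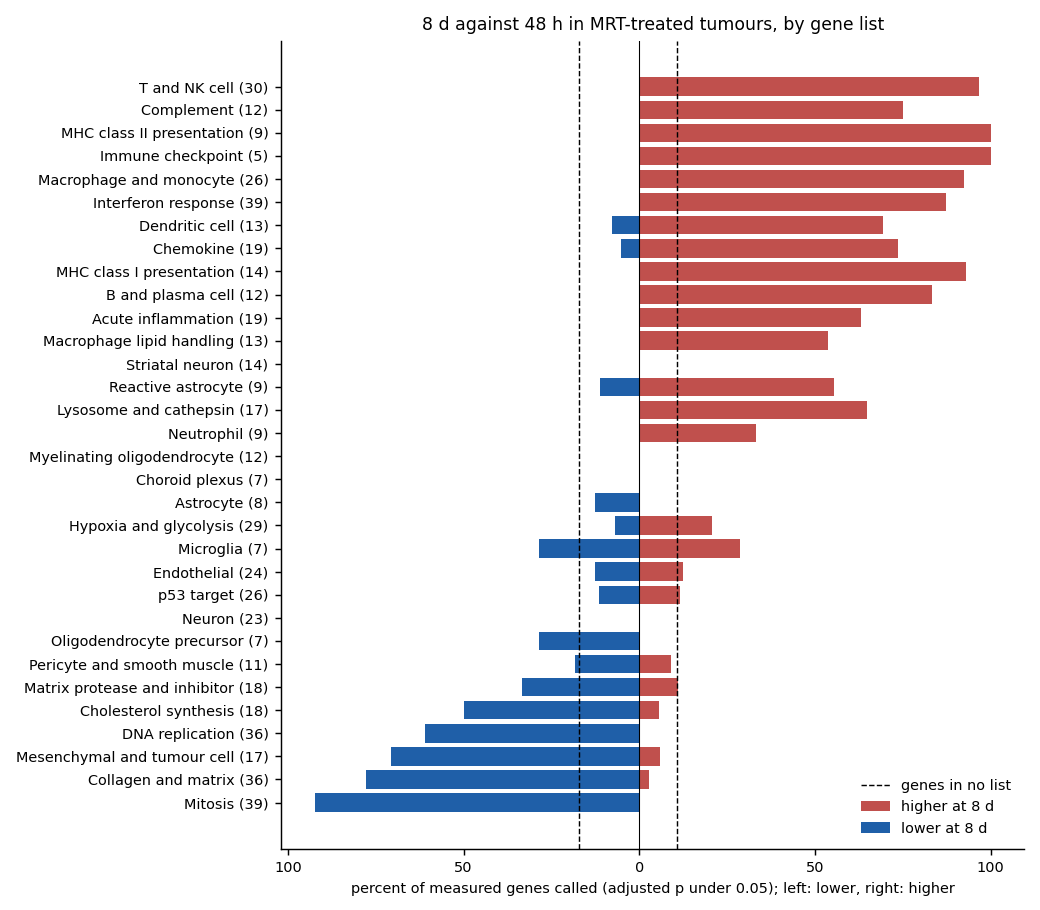
Horizontal bars give, for each gene list with 5 or more measured genes (number in parentheses), the percent of its genes called higher (right, red) or lower (left, blue) at 8 days than at 48 h in MRT tumours; dashed lines mark genes in no list, 10.8 percent higher and 17.1 percent lower. Immune lists reach far past the right line, mitosis, matrix and replication genes far past the left one, and the neuron list has no call.

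T and NK cell genes rose nearly throughout. Of 30 measured, 29 rose and none fell, with a median difference of 2.83 where the median of all genes was -0.05. In 27 of the 30 every 8-day array lay above every 48 h array. Only granzyme A (Gzma, 0.48, adjusted p = 0.551) was not called. The count was 29 without rats 19, 20 and 21 and 30 without rats 37 and 38.

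Cd3d, a chain of the T cell receptor complex, lay at 5.64, 5.81 and 6.81 at 48 h and at 9.13, 10.40 and 12.21 at 8 days, a difference of 4.70 ± 0.47 (adjusted p = 6.18e-11). Perforin (Prf1), which opens the target cell membrane, lay at 4.95, 5.34 and 5.70 at 48 h and at 8.02, 9.03 and 10.20 at 8 days, a difference of 3.88 ± 0.34 (adjusted p = 4.59e-12). Gzmb, the protease delivered through it, went from 5.00, 5.44 and 6.29 to 8.18, 10.01 and 12.08. None of these pairs of groups overlapped, and the 8-day values spread widely from rat to rat. Nkg7, a protein of cytotoxic granules (3.82 ± 0.36), Cd247, the signalling zeta chain of the T cell receptor (1.89 ± 0.18), and Ccl5, a chemokine of activated T cells (2.94 ± 0.29), rose too. The mean over the 30 genes was lowest at 8 days in rat 36 (7.84) and highest in rat 33 (9.86), and at 48 h it ran from 5.72 to 6.33.

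**Figure D2:**
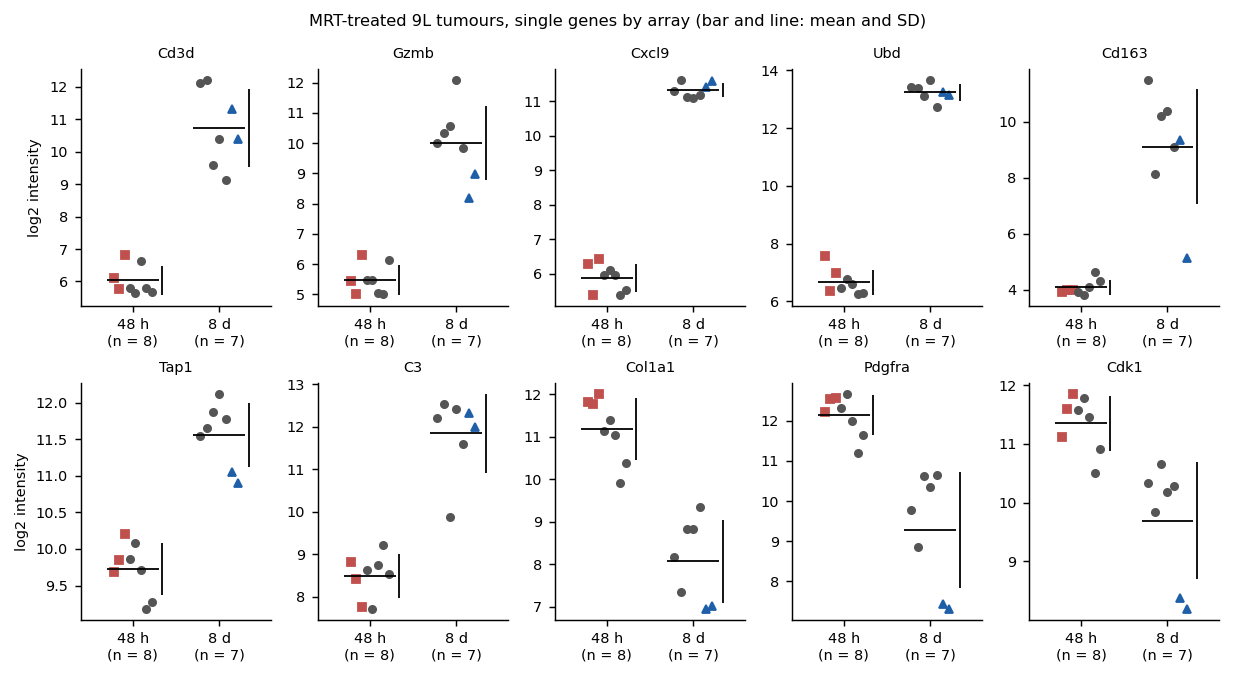
Log2 intensity of 10 genes in each array of MRT tumours at 48 h (n = 8) and 8 days (n = 7), with group mean (bar) and SD (line); red squares are rats 19, 20 and 21, blue triangles rats 37 and 38. In Cd3d, Gzmb, Cxcl9, Ubd, Cd163, Tap1 and C3 every 8-day array lies above the 48 h arrays, in Col1a1 and Pdgfra every one lies below, and in Cdk1 the groups overlap.

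Of 12 B and plasma cell genes, 10 rose and none fell (median 1.09). The B cell surface protein Ms4a1 lay at 4.32, 4.52 and 4.95 at 48 h and at 5.93, 7.02 and 8.26 at 8 days, a difference of 2.63 ± 0.34 (adjusted p = 2.57e-08). Pou2af1, a transcriptional coactivator of B cells, rose by 2.23 ± 0.31, Jchain, which joins antibody chains, by 2.24 ± 0.37, and the kinase Blk by 1.04 ± 0.18. The groups did not overlap in these 4 genes.

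Of 13 dendritic cell genes, 9 rose and 1 fell (median 1.31). The chemokine Ccl17, which draws Ccr4-bearing T cells, lay at 6.83, 7.29 and 8.10 at 48 h and at 9.39, 10.58 and 12.57 at 8 days (difference 3.43 ± 0.35, adjusted p = 9.92e-11). The endocytic receptor Ly75 rose by 2.69 ± 0.25, the costimulatory ligand Cd86 by 2.42 ± 0.28 and Ccl22 by 1.31 ± 0.18. Lamp3, a protein of mature dendritic cells, fell by 0.67 on the log2 scale, and its call was lost without rats 37 and 38. All 5 measured genes of the checkpoint and costimulation list rose (median 1.60), among them the costimulatory receptors Cd40 (2.86 ± 0.27) and Icos (2.17 ± 0.29), its ligand Icoslg (1.60 ± 0.28) and the inhibitory receptor Ctla4 (0.95 ± 0.16).

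Of 26 macrophage and monocyte genes, 24 rose and none fell (median 1.51), and in 23 the groups did not overlap. Gpnmb and Lgals3 were the 2 not called. Cd163 lay at 3.81, 4.00 and 4.64 at 48 h and at 5.13, 9.36 and 11.50 at 8 days, a difference of 5.04 ± 0.58 (adjusted p = 1.62e-09), so its 8-day values were above all 48 h values but spread widely among rats. Ms4a7, a membrane protein of macrophages, rose by 4.26 ± 0.38, the monocyte chemokine receptor Ccr2 by 2.14 ± 0.30 and the high-affinity antibody receptor Fcgr1a by 2.12 ± 0.29.

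Genes of complement, of lysosomes and of macrophage lipid handling rose in part, and their cell source was not tested. Of 12 complement genes 9 rose (median 1.71), and none fell. C3, the central component, lay at 7.71, 8.58 and 9.22 at 48 h and at 9.87, 12.20 and 12.53 at 8 days (difference 3.37 ± 0.51, adjusted p = 8.51e-07), with rat 34 lowest at 8 days. C1qb (1.99 ± 0.29), a chain of the first component, Cfd (2.47 ± 0.36) and the stabilizer properdin (Cfp, 1.90 ± 0.27) of the alternative pathway rose as well. Of 17 lysosome genes 11 rose (median 0.45), led by the proteases Ctsc (2.70 ± 0.30), Ctsz (2.00 ± 0.29) and Ctse (1.84 ± 0.32). Of 13 genes of macrophage lipid handling 7 rose (median 0.79), among them the cholesterol exporters Abcg1 (1.21 ± 0.19) and Abca1 (0.88 ± 0.23), while 6, Apoe and Trem2 among them, were not called.

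The neutrophil and microglia lists gave few calls or calls in both directions. Of 9 neutrophil genes 3 rose and 6 were not called, and without rat 35 only 1 rose, with the growth factor receptor Csf3r at 1.09 ± 0.28 (adjusted p = 0.00274). Of 7 microglia genes 2 rose and 2 fell. The risers were the fractalkine receptor Cx3cr1 (0.62 ± 0.19, adjusted p = 0.011) and Gpr34 (0.97 ± 0.36, adjusted p = 0.0475). Gpr34 was not called in 11 of the 15 fits that left out 1 array, with the largest adjusted p, 0.114, without rat 32. Cx3cr1 was not called without rats 37 and 38 (0.43, adjusted p = 0.122) or without rats 19, 20 and 21 (0.52, adjusted p = 0.0958). The fallers were Tmem119 (-2.41 ± 0.44) and Olfml3 (-2.71 ± 0.40), which mesenchymal cells express too. Tmem119 lay at 10.29, 12.00 and 12.77 at 48 h and at 7.62, 9.58 and 11.28 at 8 days.

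Interferon response genes rose as a group. Of 39 measured 34 rose and none fell (median 1.42), and in 25 the groups did not overlap. Eif2ak2, Ifi35, Ifit1, Isg15 and Oasl were not called. The count was 32 without rats 19, 20 and 21 and 36 without rats 37 and 38. Cxcl9, which draws Cxcr3-bearing T cells, lay at 5.39, 5.98 and 6.43 at 48 h and at 11.08, 11.30 and 11.61 at 8 days, a difference of 5.44 ± 0.54 (adjusted p = 4.84e-11). Epsti1, an interferon-induced protein, went from 7.19, 7.55 and 8.06 to 9.53, 10.31 and 10.92 (2.70 ± 0.29, adjusted p = 3.68e-10), and the nucleic acid sensor Zbp1 rose by 2.60 ± 0.31. The groups did not overlap in any of these 3 genes.

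Of 14 genes of MHC class I presentation 13 rose and none fell (median 1.17), with Erap1 not called. Nlrc5, the transactivator of class I genes, lay at 6.27, 6.57 and 6.81 at 48 h and at 9.05, 9.60 and 10.04 at 8 days (2.98 ± 0.28, adjusted p = 1.98e-11). Tap1, a subunit of the peptide transporter, rose by 1.84 ± 0.22, tapasin (Tapbp), which loads peptides, by 1.49 ± 0.20, and the class I molecule RT1-S3 by 2.37 ± 0.26. All 9 class II genes rose (median 1.61) with no overlap in any. Ciita, the transactivator of class II genes, lay at 7.39, 7.64 and 8.16 at 48 h and at 10.16, 10.89 and 11.48 at 8 days (3.17 ± 0.33, adjusted p = 2.01e-10, 8.97-fold). RT1-Db1, a class II beta chain, rose by 2.02 ± 0.31, and RT1-DMa and RT1-DMb, which exchange peptides on class II, by 1.61 ± 0.23 and 1.61 ± 0.25. Probe sets of RT1 genes can bind transcripts of close relatives, so values of single RT1 genes are uncertain.

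Of 19 other chemokines 14 rose and 1 fell (median 1.20). Cxcl13, which draws B cells, lay at 6.63, 7.67 and 8.74 at 48 h and at 12.40, 13.16 and 13.58 at 8 days (5.36 ± 0.53, adjusted p = 4.5e-11). Xcl1, made by cytotoxic lymphocytes for cross-presenting dendritic cells, rose by 3.85 ± 0.43, Cxcl16 by 2.39 ± 0.26 and Ccl4 by 2.26 ± 0.33. Cxcl12, which stromal cells make, was the 1 that fell, from 9.91, 10.04 and 10.58 to 7.79, 8.39 and 9.58 (-1.57 ± 0.25, adjusted p = 2.29e-06). Of 19 genes of acute inflammation 12 rose and none fell (median 1.08). These included the cytokines Il1a (3.16 ± 0.37) and Il1b (2.80 ± 0.36), the NF-kB inhibitor Tnfaip3 (2.17 ± 0.22) and the adhesion molecule Vcam1 (2.28 ± 0.35), by which leukocytes hold on to vessels. Il6 and Tnf were among the 7 not called.

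**Figure D3:**
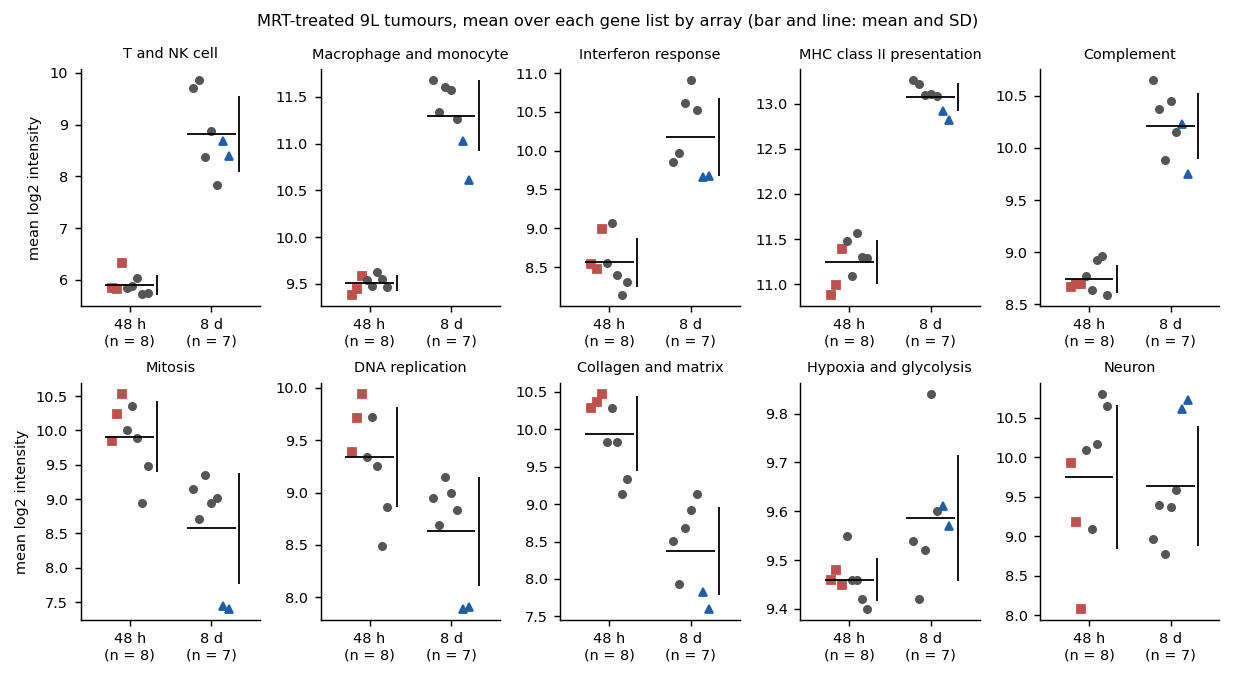
Mean log2 intensity over each of 10 gene lists in every array of MRT tumours at 48 h (n = 8) and 8 days (n = 7), with group mean (bar) and SD (line); red squares are rats 19, 20 and 21, blue triangles rats 37 and 38. The 4 immune lists and complement are higher at 8 days in every array. Mitosis and matrix are lower at 8 days in the group mean, with overlap between arrays, and rats 37 and 38 are lowest in mitosis. The neuron means overlap.

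Mitosis genes fell. Of 39 measured 36 fell and none rose (median -1.43), with Aurkb, Cenpa and Mad2l1 not called. The groups overlapped in most: in 4 of the 39 every 8-day array lay below every 48 h array, where the share over all genes was 3.76 percent. Cdk1, the kinase that starts mitosis, lay at 10.50, 11.52 and 11.85 at 48 h and at 8.19, 10.18 and 10.66 at 8 days (-1.66 ± 0.32, adjusted p = 8.11e-05). Its partner cyclin B1 (Ccnb1, -1.67), the spindle motor Kif20a (-2.12) and Hmmr (-1.43), a spindle assembly protein, fell too. Fewer genes passed the test without the arrays that stood apart: 20 fell without rats 37 and 38 (median -0.94) and 25 without rats 19, 20 and 21 (median -1.19), none rising in either case. With the neuron marker mean as a covariate 37 fell.

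Promoters of many mitosis genes hold the cell-cycle homology region, which the DREAM repressor complex and its activating counterpart bind. Its core TTTGAA was searched on both strands in RefSeq promoters of the GRCr8 build, 250 bases before to 50 bases after each start, and was in 6140 of 33469 promoters (18.3 percent) and in 24 of the 34 measured mitosis genes with a promoter in the table (70.6 percent), but in 1 of 32 replication genes (3.12 percent). CCAAT, searched in the same way, was in 37.5 percent of all promoters and in 26 of the 34 (76.5 percent). It was also in 6 of 7 class II genes (85.7 percent), a list that rose, and in 19 of 32 replication genes (59.4 percent). In T and NK genes it was in 5 of 23 (21.7 percent) and in matrix genes in 7 of 24 (29.2 percent). The 4 called mitosis genes with the largest moderated statistic and a match before the start are shown as 70 bases of their own strand, with TTTGAA in capitals, at chr10:25665224-25665293 (minus) for Hmmr, chr20:19265223-19265292 (plus) for Cdk1, chr1:143659411-143659480 (plus) for Prc1 and chr10:84473094-84473163 (minus) for Top2a, where the core lies on the opposite strand. A match is a run of letters and shows no binding.
Hmmr: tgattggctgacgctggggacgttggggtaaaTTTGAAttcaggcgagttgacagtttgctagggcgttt
Cdk1: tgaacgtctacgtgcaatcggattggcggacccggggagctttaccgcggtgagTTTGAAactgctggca
Prc1: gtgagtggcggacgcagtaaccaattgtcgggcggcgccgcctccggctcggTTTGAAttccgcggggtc
Top2a: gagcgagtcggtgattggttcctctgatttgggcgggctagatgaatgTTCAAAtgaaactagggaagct

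Prc1 (-1.72), which bundles the midzone of the spindle, and Top2a (-1.84), which untangles chromosomes, fell. The core begins 46 bases before the start in Hmmr, 16 in Cdk1, 18 in Prc1 and 22 in Top2a.

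Of 36 DNA replication genes 22 fell and none rose (median -0.73). The groups overlapped in all 36, where in 3.76 percent of all genes every 8-day array lay below every 48 h array. The clamp loader subunits Rfc3 (-1.21 ± 0.27) and Rfc4 (-0.79 ± 0.20) and the polymerase subunit Pole (-1.28 ± 0.33) fell, Pole not without rats 19, 20 and 21. The count rested on a few arrays: it was 4 without rats 37 and 38, 2 without rats 19, 20 and 21, 13 without rat 38 alone and 14 without rat 37 alone. The median stayed below 0 in each of the first pair of these settings, at -0.43 and -0.52. Other omissions raised the count, to 25 without rat 25 alone and to 24 without rat 26 or rat 34 alone.

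Collagen and matrix genes fell. Of 36 measured 28 fell and 1 rose (median -1.42), and in 11 the groups did not overlap. Without rats 37 and 38 the falls numbered 23, and without rats 19, 20 and 21 they numbered 22. Col1a1, a chain of the fibrillar collagen of connective tissue, lay at 9.90, 11.26 and 12.00 at 48 h and at 6.95, 8.17 and 9.35 at 8 days (-3.10 ± 0.41, adjusted p = 4.32e-08). Col3a1 went from 12.52, 13.43 and 13.83 to 9.35, 10.51 and 11.41 (-3.04 ± 0.33, adjusted p = 5.16e-10), and Col18a1, a basement membrane collagen, from 10.72, 12.33 and 12.72 to 7.83, 8.33 and 9.26 (-3.59 ± 0.45, adjusted p = 1.06e-08). The 3 chains of collagen VI fell together, Col6a1 (-2.72), Col6a2 (-2.92) and Col6a3 (-3.04). Tgfbi was the 1 that rose (0.91 ± 0.32, adjusted p = 0.0314), and it was not called without rat 25, 26, 32, 33, 34 or 35. Col4a1 and Col4a2, collagens of vessel basement membranes, were not called.

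Genes of the mesenchymal and tumour cell list fell with the matrix genes, and their cell source was not tested. Of 17 measured 12 fell (median -0.83) and 1, the adhesion receptor Cd44 (0.68, adjusted p = 0.0222), rose. Cd44 was not called without rat 25, 26, 32, 34, 35 or 36. The transcription factor Twist1 lay at 9.48, 10.87 and 11.50 at 48 h and at 4.70, 8.41 and 9.63 at 8 days (-3.03 ± 0.50, adjusted p = 4.86e-06). The cell-cycle inhibitor locus Cdkn2a (-3.06), the transcription factor Snai1 (-2.13) and the homeobox factor Prrx2 (-3.13) fell. Pdgfra, a growth factor receptor of mesenchymal and oligodendrocyte precursor cells, lay at 11.21, 12.27 and 12.67 at 48 h and at 7.31, 9.79 and 10.64 at 8 days. Sfrp4, a secreted Wnt inhibitor, went from 10.69, 11.67 and 12.14 to 6.07, 8.09 and 9.91. For Prrx2 and Sfrp4 a dimmer probe set of the same gene gave 0.06 and 0.0021. Of 18 proteases and inhibitors 6 fell and 2 rose: the protease Mmp2 fell by 1.75 on the log2 scale while another of its probe sets gave 0.29, the inhibitor Timp1 fell by 0.82 but was not called without rats 37 and 38, and Mmp7 (2.71 ± 0.39) and the plasminogen activator Plau (1.48 ± 0.22) rose.

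Of 29 hypoxia and glycolysis genes, 6 rose and 2 fell, or 1 without rat 34 (median 0.11), and 21 were not called, where 29.2 percent of all genes were called. Hk2, the first enzyme of glycolysis, rose by 1.05 ± 0.23 and Pfkfb3, which sets the pace of glycolysis, by 0.92 ± 0.17. Of 26 p53 targets 3 rose and 3 fell (median -0.06), and 20 were not called. Without rat 21 only 1 fell. The risers were Dram1 (1.96 ± 0.26), an autophagy gene, the DNA repair gene Ddb2 (0.62 ± 0.11) and the death receptor Fas (0.73 ± 0.19). Cdkn1a, the inhibitor that carries the p53 cell-cycle arrest, stood at a mean of 11.14 at 48 h and 11.18 at 8 days (difference 0.04 ± 0.19, adjusted p = 0.919), and Mdm2, the p53 ubiquitin ligase, fell by 0.31 (adjusted p = 0.0441) and was not called in 10 of the 15 fits that left out 1 array, among them those without rat 21 (adjusted p = 0.0972) and rat 20 (adjusted p = 0.0907). Cdkn1a and Mdm2 were picked after their values were seen. Of 18 cholesterol synthesis genes 9 fell and 1 rose (median -0.42). Fdps went from 10.58, 10.69 and 10.94 to 9.81, 9.95 and 10.29 (-0.67 ± 0.16, adjusted p = 0.000943), Msmo1 (-0.51) and Fdft1 (-0.72) fell, and the sterol carrier Stard4 rose by 0.90.

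Of 24 endothelial genes 3 rose and 3 fell (median -0.05): the tight junction protein Ocln (1.70 ± 0.26) and the growth factor receptor Kdr (0.82 ± 0.19) rose, and the endothelial sialomucin Emcn (-0.67 ± 0.17) fell. Of 11 pericyte genes 1 rose and 2 fell, Pdgfrb (-1.36) and Cspg4 (-1.05). None of 23 neuron genes was called (median -0.16), none of 14 striatal neuron genes and none of 12 myelin genes, and their values ran widely among rats, as in the neuron gene Syt1, at 4.58, 6.17 and 7.71 at 48 h and 5.83, 6.21 and 7.75 at 8 days. Of 8 astrocyte genes 1, Gja1, fell (-0.31 ± 0.07), and another of its probe sets gave 0.045. Of 7 oligodendrocyte precursor genes 2 fell, Pdgfra and the matrix proteoglycan Vcan (-2.70 ± 0.36), and Olig1, Olig2 and Sox10, the transcription factors of that lineage, were among the 5 not called (median -0.18). Of 9 reactive astrocyte genes 5 rose and 1 fell, with Serpina3n at 2.48 ± 0.45 and Steap4 at 2.39 ± 0.48. None of the 7 choroid plexus genes and neither of the 2 red blood cell genes was called.

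The same interval was then compared with that in untreated tumours, in which 2300 genes were called (16.2 percent), 1130 higher (7.95 percent) and 1170 lower (8.23 percent) at 8 days. The difference of the 2 changes was called in 3806 genes (26.8 percent), more positive in MRT tumours in 1373 (9.66 percent) and more negative in 2433 (17.1 percent). Of the 30 T and NK genes 12 rose in untreated tumours (median 1.30), and in 22 the rise was larger in MRT tumours. Cd3d differed 2.46 in its change (adjusted p = 0.0248). Without the untreated 8-day rat 27 the 22 became 12. The interferon genes rose in 7 of 39 (median 0.48), and the change was more positive after MRT in 14, or in 8 without the untreated 48 h rat 18. Class II genes rose in 7 of 9 untreated (median 1.38), and none differed in change between the treatments at the threshold. The change was more positive after MRT in 5 of 26 macrophage and monocyte genes and in 3 of 14 class I genes. Among the 12 largest rises, the difference in change was not called for Ubd, Cxcl9 and Cxcl13 (adjusted p = 0.0779, 0.0858 and 0.498) and was called for the others. Ubd, Cxcl9 and Cxcl13 rose by 4.10, 3.32 and 4.47 in untreated tumours.

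Of 36 matrix genes 10 rose, none fell and 26 were not called in untreated tumours (median 0.61), and in 30 the change was more negative in MRT tumours (median difference -2.61), in 28 without rats 37 and 38. Col1a1 differed by -3.42 (adjusted p = 0.000679), with a change of 0.32 (adjusted p = 0.737) in untreated tumours. No mitosis gene was called in untreated tumours (median 0.10), and 22 of 39 were more negative after MRT. That number is less firm, at 2 without the untreated 48 h rat 17, 1 without rats 37 and 38, 0 without rats 19, 20 and 21 and 0 with the neuron covariate. Of 29 hypoxia genes 18 rose in untreated tumours (median 0.65), and 15 were more negative in MRT tumours. Of 23 neuron genes 19 fell in untreated tumours (median -2.04), where the neuron mean went from 10.18 ± 0.55 (n = 4) to 8.19 ± 0.65 (n = 4), and 12 were more positive after MRT, or 5 without the untreated 48 h rat 17. The part of this shift in brain content in the other differences was not tested gene by gene; with the neuron mean as a covariate 2038 probe sets differed where 6662 did without it, and 18 of 36 matrix genes and 18 of 30 T and NK genes still did.

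The genes with the largest differences in change that were also called in MRT tumours were on the positive side Cd163 (3.74, adjusted p = 0.00594), Coch (3.72), Scin (3.50), C3 (3.24), the chromatin organizer Satb1 (3.05) and Tnfrsf14 (3.03), and on the negative side the water channel Aqp1 (-4.83, adjusted p = 0.000471), Anxa8 (-4.38), the bone matrix protein Ibsp (-4.08), Inmt (-4.04), Calml3 (-4.00) and the matrix protein Mfap5 (-3.98). In some of these the untreated change was the larger part: it was 3.20 for Anxa8, 3.08 for Calml3, 2.72 for Ibsp, -2.15 for Coch and -1.85 for Satb1, against -1.18, -0.93, -1.36, 1.56 and 1.20 in MRT tumours. The change of each of these 5 in MRT tumours lost its call in at least 1 of the fits that left out 1 MRT array, and in both settings without the arrays that stood apart. Mfap5 changed by -1.96 in MRT tumours, near the size of its untreated change the other way. Without rats 19, 20 and 21 its change in MRT tumours was not called (limma, adjusted p = 0.115). Aqp1 lay at 7.99, 9.90 and 10.69 at 48 h and at 5.13, 7.01 and 9.05 at 8 days after MRT and rose by 2.28 in untreated tumours.

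**Figure D4:**
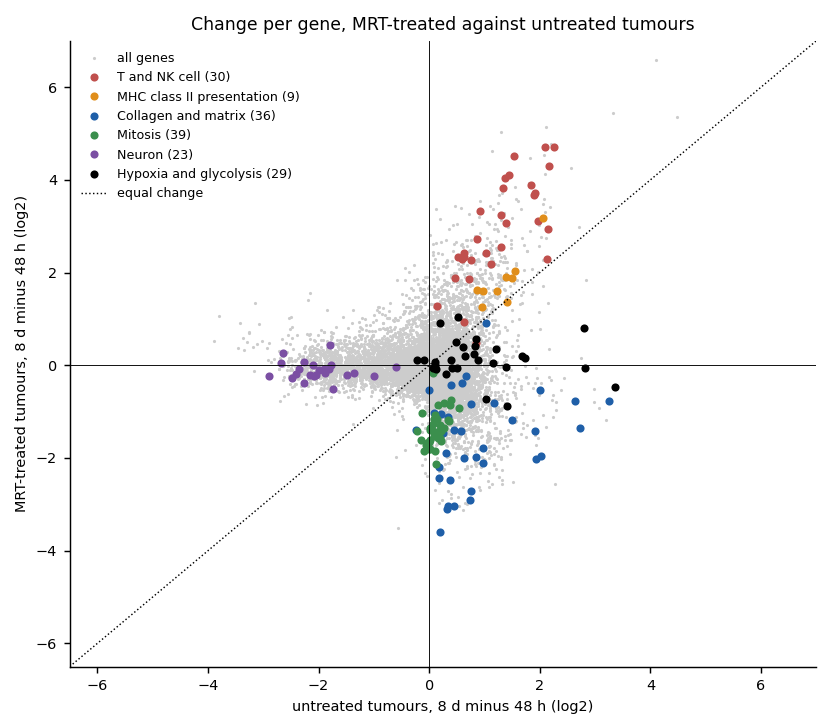
Each point is a gene, with its 8 days minus 48 h difference (log2) in untreated tumours on the horizontal axis and in MRT tumours on the vertical axis; colours mark 6 gene lists and the dotted line equal change. T and NK genes lie mostly above the line, matrix and mitosis genes below it, class II genes near it, and neuron genes to the left with little change after MRT.

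In BB tumours 1288 genes were called over the same interval (9.06 percent), 743 higher (5.23 percent) and 545 lower (3.83 percent), from 4 arrays a time. T and NK genes rose in 21 of 30 (median 1.60), interferon genes in 24 of 39 (median 1.06), class II genes in 9 of 9 (median 1.52), and matrix genes fell in 9 of 36 (median -1.01), while no mitosis gene passed (median -0.77). The difference of the changes between MRT and BB tumours was called in 0 of 14217 genes (0 percent) and 1 of 31042 probe sets (0.00322 percent), which has no gene symbol. At an unadjusted p under 0.05 (limma) there were 915 of 14217 genes, where a share of 0.05 is expected with no difference. With array quality weights, whose estimation stopped before its convergence tolerance was reached, 1306 probe sets differed. BB arrays were prepared with a partly different set of tools, per the submitters' processing notes, and the part of this in the values was not tested.

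In contralateral brain of the MRT rats 8 genes were called (0.0563 percent), all higher at 8 days: C1qa, C1qc, Chrdl1, Fcrl2, H4cl1, Hspb1, Klra5 and Plau. No T and NK, mitosis, matrix or class II gene was called there. The spread used for brain was pooled with that of the tumour arrays, so changes in brain can have been missed. The change differed between tumour and contralateral brain in 2544 genes (17.9 percent), 1050 more positive (7.39 percent) and 1494 more negative (10.5 percent) in the tumour. These included 29 of 30 T and NK genes, 9 of 9 class II genes, 19 of 39 interferon genes, 27 of 36 matrix genes and 26 of 39 mitosis genes. The largest were Ubd (5.81), Cxcl9 (4.98), Gzmb (4.70), Klrd1 (4.62), Tnfrsf14 (4.61) and Cd3d (4.58), and on the other side Col18a1 (-3.73), Sfrp4 (-3.46), Col1a1 (-3.27), Col6a3 (-3.22), the secreted factor Serpinf1 (-3.21) and Prrx2 (-3.13).

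Seen over all 4 times, the means over the lists did not move steadily, and times other than 48 h and 8 days are given as values with no test. The T and NK mean in MRT tumours was 5.69 ± 0.23 (n = 9) at 6 h, 5.90 ± 0.20 (n = 8) at 48 h, 8.82 ± 0.73 (n = 7) at 8 days and 8.41 ± 0.60 (n = 4) at 15 days. The interferon mean was 8.65 ± 0.39, 8.56 ± 0.32, 10.17 ± 0.50 and 9.52 ± 0.36 in the same order. The mitosis mean was 8.90 ± 0.67, 9.91 ± 0.51, 8.57 ± 0.81 and 9.92 ± 0.25, and the matrix mean 9.64 ± 0.52, 9.94 ± 0.50, 8.37 ± 0.59 and 9.73 ± 0.64. The immune means at 15 days stayed above those at 48 h, while the mitosis and matrix means at 15 days lay near those at 48 h.

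**Figure D5:**
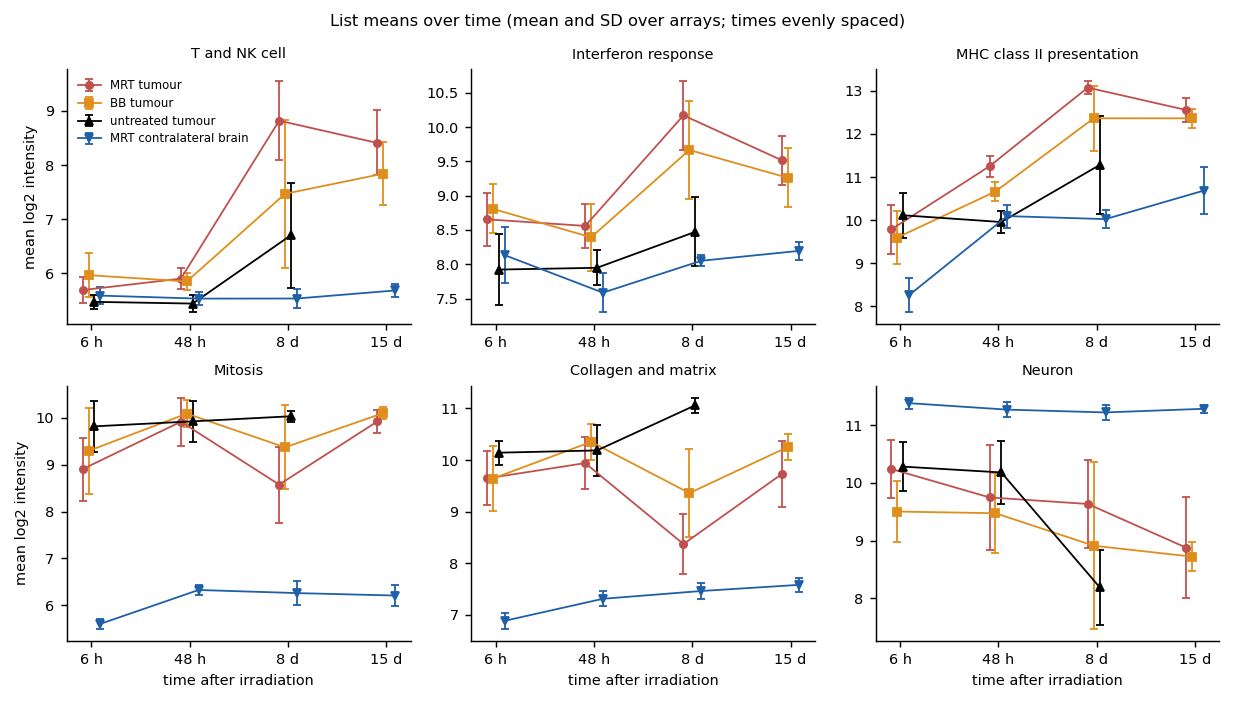
Mean log2 intensity over 6 gene lists (mean and SD over arrays) at 6 h, 48 h, 8 days and 15 days in MRT tumours (red), BB tumours (orange), untreated tumours (black, to 8 days) and MRT contralateral brain (blue), with times evenly spaced on the axis. In MRT tumours the T and NK mean is 8.82 at 8 days against 5.90 at 48 h, and the matrix mean is 8.37 against 9.94.

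The titles give each rat a number of its own. The limma p-values use the spread within groups pooled over all tumour arrays, or over all arrays for the contralateral brain. They do not rest on the compared arrays alone. For a gene that varied more in the compared groups the SE can be too small. Cd163 had an SE of 0.58, with an SD of 0.27 at 48 h and 2.06 at 8 days in MRT tumours. Where a gene varied less in the compared groups, the SE can be too large and a change can be missed. With only the groups compared, Anxa8, Cd44, Satb1 and Tgfbi were not called (limma, adjusted p = 0.147, 0.0858, 0.12 and 0.0779). The description shared by the MRT samples speaks of 6 treated rats, fewer than the 7 and 8 numbered in the titles at these times, and what that number counts is not given in the sources used here.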

How the data were processed

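RNA of 115 resected tumours and contralateral regions was hybridised to Affymetrix rat arrays, from 200 ng of total RNA, as the labels' protocols state. The submitters' processing notes name Affymetrix Expression Console with RMA for every array, and MAS5 too for all but the BB arrays. The deposited values are linear intensity after the authors' normalization, as whole numbers, the lowest 7 and the highest 27837. The rounding makes a step of 0.193 on the log2 scale at the lowest value, so differences of dim genes are coarse. The number of arrays limits the precision.

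Log2 was taken of the values. Of 31099 probe sets 57 controls were left out. The other 31042 were fitted with group means over the 59 tumour arrays, or over all 115 arrays for the contralateral brain, by limma 3.58.1 in R 4.3.3 with variances following intensity and Benjamini-Hochberg adjustment. Genes were named by 1 symbol of the platform annotation and represented by their brightest probe set: 20826 probe sets with 1 symbol gave 14217 genes, 436 had several symbols and 9780 none.

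The 33 lists hold 676 genes. The members, lists and tests were chosen with earlier results of these data known. Named genes are the 12 largest non-overlapping rises and falls, up to 4 called genes of each list by moderated statistic and up to 2 in the other direction, and the 6 largest differences in change each way. Genes outside this rule are named as single members that did or did not pass, or as said in the text.

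The labels give the rat of every array, and 55 rats have both tissues. Of 13 rats with tumour and contralateral arrays in the groups compared, 5 had a correlation of deviations over 0.1 (median 0.073, against -0.012 for other rats). The same animal pairs the tissues, and the rat as a replicate block was an alternative. Permutation tests used scipy 1.17.1 and plots matplotlib 3.10.9, with pandas 2.3.3 and numpy 2.4.6 under Python 3.11.15.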

Additional observations from a re-analysis of the deposited data

Results flagged for a closer look

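In 12 of 308 groups of values tested, 1 array lay far from the others of its group by Dixon's criterion, where chance marks about 1 group in 20. At 8 days C3 was 9.87 in rat 34 where the next was 11.59, Scin was 6.94 in rat 36 where the next was 9.39, Fas was 8.13 in rat 34, RT1-DMb was 12.05 in rat 38, and Pfkfb3 was highest at 10.41 in rat 35. At 48 h Ctla4 was lowest at 4.86 in rat 19, RT1-S3 lowest at 8.98 in rat 20, Plau lowest at 8.51 in rat 25, Fdps highest at 10.94 in rat 24 and Tnfrsf14 highest at 5.55 in rat 21. The mean over the chemokine list was lowest at 7.20 in rat 19 and that over the red blood cell genes highest at 9.84 in rat 25, both at 48 h.

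The change from 48 h to 8 days differed between MRT tumours and another group in 6662 probe sets for untreated tumours, 1 for BB tumours and 4159 for contralateral brain (limma, adjusted p under 0.05). Against untreated tumours the difference in change was 3.74 for Cd163, 3.72 for Coch, 3.50 for Scin, 3.24 for C3, 3.05 for Satb1, 3.03 for Tnfrsf14, -4.83 for Aqp1, -4.38 for Anxa8, -4.08 for Ibsp, -4.04 for Inmt, -4.00 for Calml3 and -3.98 for Mfap5. Against contralateral brain it was 5.81 for Ubd, 4.98 for Cxcl9, 4.70 for Gzmb, 4.62 for Klrd1, 4.61 for Tnfrsf14, 4.58 for Cd3d, -3.73 for Col18a1, -3.46 for Sfrp4, -3.27 for Col1a1, -3.22 for Col6a3, -3.21 for Serpinf1 and -3.13 for Prrx2.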

How the results depend on the processing

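Of the 12 alternatives to the whole comparison of MRT tumours, the number of called probe sets stayed within 1.5 times of 7000, at 4804 to 9020, except that testing only the brightest probe set per gene, which tests fewer, gave 4383. Leaving out 1 of the 15 arrays gave 6051 to 7367. For the difference in change from untreated tumours (6662) the count was 4278 with only the brightest probe set per gene, 2038 with neuron markers as a covariate and 2764 without rats 19, 20 and 21, the last setting chosen after seeing the data like the beta-actin covariate (6444). Leaving out 1 untreated array gave 3598 (without the 48 h rat 17) to 7306, with 4172 without the 8-day rat 27. For the difference from BB tumours (1) the count was 0 under quantile normalization, a common array median, the filter on dim probe sets, the brightest probe set, no variance trend, the neuron covariate, only the groups compared and without rats 37 and 38, and 1306 with array quality weights. Leaving out 1 BB array gave 0 to 93. All tumour counts with array quality weights used the same weights, whose estimation stopped before its convergence tolerance was reached. They were 8295 for MRT tumours and 8179 for the difference from untreated tumours. For the difference from contralateral brain (4159) array quality weights gave 6849 and the rat as a replicate block 5085. The block was fitted for this count only. The cause of these shifts was not tested.

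Another probe set of the same gene went the other way, without a call, for Fas (-0.14), Gja1 (0.045), Mmp2 (0.29), Prrx2 (0.06) and Sfrp4 (0.0021). For 11 genes another probe set went the same way without a call. These were Aqp1 (-0.67), Cd44 (0.65), Col6a3 (-0.78), Fas (0.25), Gja1 (-0.0062) and Jchain (0.44). The others were Kdr (0.15), Pdgfrb (-0.32), Pfkfb3 (0.19), Satb1 (1.03) and Stard4 (0.10). Pdgfrb, Pfkfb3 and Stard4 also had a further probe set called the same way. Of 51 called genes picked by the naming rule that have several probe sets, 37 had another one called the same way and 0 the opposite way.

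Of the 123 genes named with values in MRT tumours, 9 (Anxa8, Calml3, Cd44, Coch, Gpr34, Ibsp, Mdm2, Satb1 and Tgfbi) lost the call when 1 array was left out, and 14 in some other setting: these 9, Cx3cr1, Lamp3, Mfap5, Pole and Timp1. With neuron markers as a covariate the difference in change from untreated tumours lost its call for C3 (2.24, adjusted p = 0.102), Coch (2.15, adjusted p = 0.131) and Satb1 (1.58, adjusted p = 0.0766).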
